A study of Mus musculus with 4 samples.

Results

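The collagen genes of mouse hepatocyte preparations were compared between tamoxifen and vehicle. Members were all protein-coding mouse genes whose symbol has the form Col, a number, a and a number, each encoding an alpha chain of a collagen, and 44 of the 22298 genes listed met this rule. The tamoxifen group held 2 libraries and the vehicle group 2 libraries, all of primary hepatocytes of wild-type male C57BL/6 mice taken on day 5. The mice were 8 weeks old when bought. Every mouse, vehicle mice included, was kept on a methionine- and choline-deficient diet, a model of steatohepatitis, for 6 weeks with pair feeding. Tamoxifen, a selective estrogen receptor modulator, was given intraperitoneally in corn oil at 100 mg/kg for 5 days, and vehicle mice got the oil alone. Whether the libraries came from separate mice is not labelled, so p-values measure the spread between these libraries, which may be technical. Levels are FPKM, fragment counts divided by transcript length and by the number of mapped fragments, so they can be compared between genes.

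Collagens are secreted proteins whose alpha chains wind around each other as a helix, and each chain needs glycine at every 3rd residue of its helical stretch to do so. Fibrillar collagens assemble into the tensile fibres of connective tissue and scars, basement membrane collagens form sheets under epithelia and around sinusoids, and the remaining types coat fibrils, build beaded filaments or stay anchored in cell membranes. In liver the fibrillar chains are made mainly by activated stellate cells and portal fibroblasts, type IV chains by stellate and endothelial cells, and type XVIII collagen mainly by hepatocytes. The 44 genes divided into 11 fibrillar genes, 8 basement membrane genes (6 type IV chains, Col15a1 and Col18a1) and 25 others.

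The classes differ in how far the glycine repeat runs without a break, which is shown here because the classes are structural. In the GENCODE M21 annotation of GRCm38, the longest unbroken run with a GGN codon, which encodes glycine, at every 3rd codon was 216 to 344 repeats long in fibrillar genes (median 338). It was 30 to 66 repeats long in basement membrane genes (median 41) and 23 to 113 in the others (median 52), against a median of 2 over 21757 protein-coding genes. Col18a1 had 30 repeats, Col4a1 40 and Col3a1 344. Fibrillar genes also held 305 internal coding exons of exactly 54 bases among 627 (48.6%), against 16 of 361 (4.43%) in basement membrane genes, 148 of 929 (15.9%) in the others and 0.733% over all genes. The first such exon inside the longest run of the 3 fibrillar genes with the highest mean vehicle level is shown 5′ to 3′, with GGN codons in capitals.

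Col1a1, coding exon 8, chr11:94939904-94939957, plus strand: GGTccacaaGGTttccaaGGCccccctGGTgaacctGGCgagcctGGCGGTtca
Col1a2, coding exon 8, chr6:4515481-4515534, plus strand: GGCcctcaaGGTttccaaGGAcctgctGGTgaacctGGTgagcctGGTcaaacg
Col3a1, coding exon 6, chr1:45325360-45325413, plus strand: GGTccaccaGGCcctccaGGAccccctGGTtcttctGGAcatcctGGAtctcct
Each exon opened with a GGN codon and kept the frame, and the exon of Col1a1 held 7 GGN codons where those of Col1a2 and Col3a1 held 6 each.

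**Figure D1:**
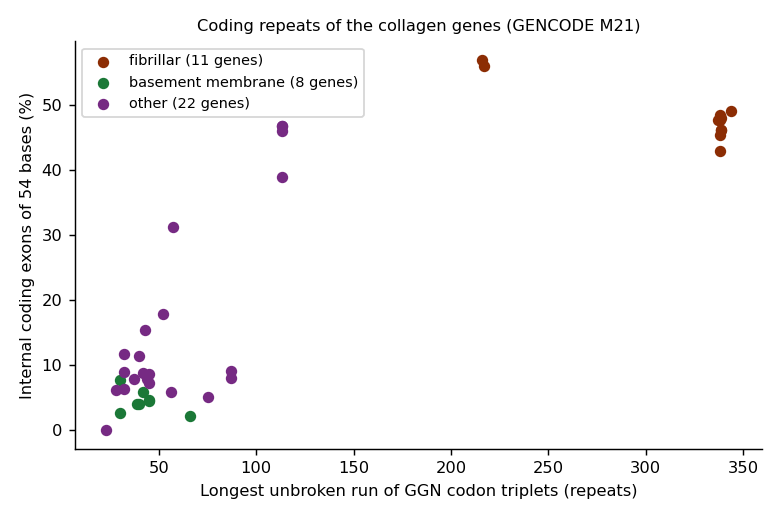
Each point is 1 of 41 collagen genes (Col8a1, Col8a2 and Col10a1 have no internal coding exon), with the longest unbroken glycine repeat run on the x axis (number of repeats) and the percentage of its internal coding exons that are exactly 54 bases long on the y axis. Fibrillar genes stand apart at 216 to 344 repeats, while no basement membrane gene exceeds 66 repeats.

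Facts of the whole series bear on every level below. The libraries held an estimated 16600000 to 17900000 mapped fragments in tamoxifen and 19600000 to 20700000 in vehicle, inferred from the spacing of low FPKM values because no read counts were given. The 100 highest genes took 62.6% and 65.0% of all FPKM in tamoxifen, against 53.8% and 46.1% in vehicle. The median log2 fold change over the 11633 genes tested was −0.60, and 51.0% of them passed an adjusted p under 0.05 (limma, Benjamini-Hochberg over all genes tested), 46.7% as lower and 4.31% as higher. Vehicle 2 exceeded vehicle 1 in 70.9% of these genes. It also held most of the signal of pancreatic acinar genes, at a summed 1424 FPKM, against 9.11 and 54.7 FPKM in tamoxifen 1 and 2 and 8.61 FPKM in vehicle 1. Of 12 hepatocyte markers 11 were listed, and they summed to 69743 and 64545 FPKM in tamoxifen and 49700 and 36828 FPKM in vehicle. Hepatocyte transcripts thus dominated every library, while markers of other liver cells were also present, as given after the collagen classes.

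Collagen transcripts summed to 165 and 181 FPKM in tamoxifen 1 and 2, against 303 and 416 FPKM in vehicle 1 and 2, a vehicle mean 2.08 times the tamoxifen mean. Of the 44 genes, 16 reached 1 FPKM in at least 2 of the 4 libraries and were tested. Of these, 15 were called lower in tamoxifen, where 46.7% of all genes tested were (51.0% in either direction), and 0 were called higher (limma; 0 also at an unadjusted p under 0.05), where 4.31% of all genes tested were. The gene not called was Col18a1. Both tamoxifen libraries lay below both vehicle libraries in 15 of the 16, as they did in 71.9% of all genes tested. The median log2 fold change of the 16 was −1.95, beside −0.60 over all genes tested, and 11 of the 16 had a mean FPKM at least 4-fold lower in tamoxifen, beside 17.2% of all genes tested. The 16 are not all members, and a gene that passed the filter only through its vehicle libraries had to be lower in tamoxifen: 10 of the 16 were under 1 FPKM in both tamoxifen libraries, as were 12.1% of all genes tested.

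**Figure D2:**
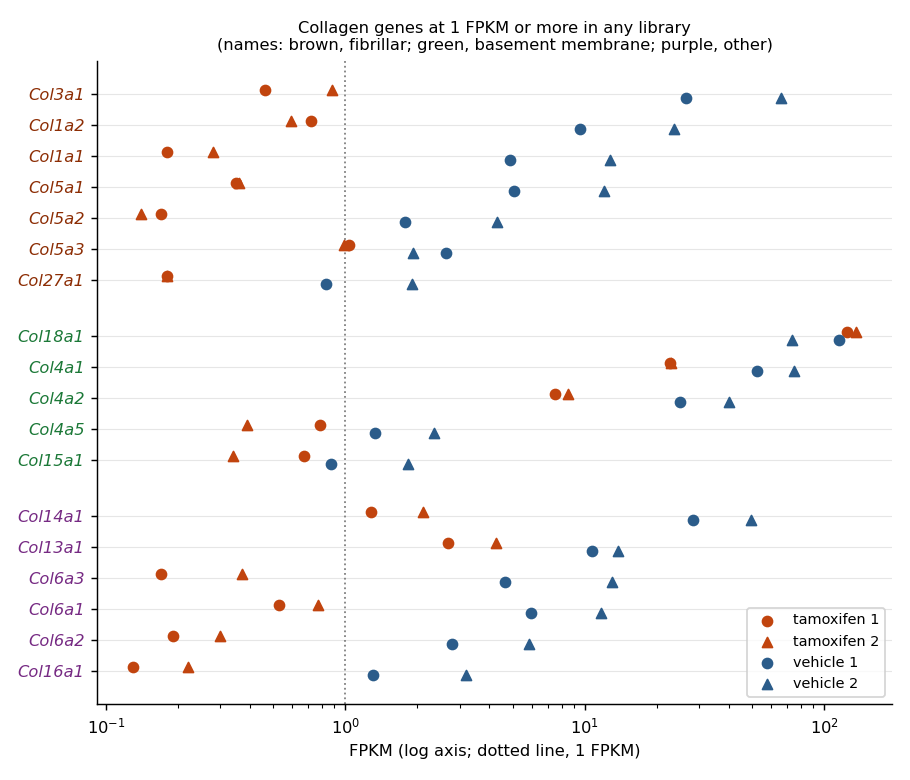
FPKM of the collagen genes at 1 FPKM or more in any library (log axis), by library, with tamoxifen points above vehicle points of each gene. In 15 of the 16 genes tested both tamoxifen libraries lie below both vehicle libraries, and Col18a1 is the exception, at 124 and 136 FPKM in tamoxifen against 116 and 73.1 FPKM in vehicle.

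Col18a1 was the highest collagen in every library except vehicle 2, where Col4a1 was slightly higher. Only 2 genes, Col18a1 and Col4a1, reached 10 FPKM in both tamoxifen libraries, and 6 genes did so in both vehicle libraries (these 2 with Col4a2, Col14a1, Col3a1 and Col13a1). Of the 26 genes under 1 FPKM in every library, 4 (Col2a1, Col9a1, Col19a1 and Col26a1) were listed at 0 throughout and the other 22 did not exceed 0.81 FPKM.

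The fibrillar class had the lowest summed level in tamoxifen relative to vehicle. All 6 fibrillar genes tested were lower in tamoxifen, with a median log2 fold change of −2.79, and 5 of the 6 had means at least 4-fold lower. Over all genes tested 46.7% were lower, the median was −0.60 and 17.2% had means at least 4-fold lower. In 5 of the 6 both tamoxifen libraries were under 1 FPKM, beside 12.1% of all genes tested, so these genes passed the filter only through vehicle and had to be lower. The summed level of the 11 fibrillar genes was 3.24 and 3.52 FPKM in tamoxifen 1 and 2, against 51.7 and 124 FPKM in vehicle 1 and 2, a vehicle mean 25.9 times the tamoxifen mean. As a share of all collagen FPKM this was 1.97% and 1.95% in tamoxifen and 17.1% and 29.7% in vehicle.

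Col3a1 (chr1:45311538-45349706, plus strand), the chain of type III collagen of reticular and early scar fibres, was at 0.46 and 0.88 FPKM in tamoxifen, against 26.4 and 66.2 FPKM in vehicle. Both tamoxifen libraries lay far below both vehicle libraries, and the log2 fold change was −4.70 ± 0.40 SE (limma, adjusted p = 0.000509), lower than all but 0.0602% of the genes tested. Col1a2 (chr6:4504814-4541544, plus strand), the α2 chain of type I collagen, was at 0.72 and 0.59 FPKM in tamoxifen, against 9.59 and 23.6 FPKM in vehicle (limma log2 fold change −3.29 ± 0.38 SE, adjusted p = 0.00102). Col1a1 (chr11:94936224-94953042, plus strand), the α1 chain of the same trimer and the usual transcript read-out of fibrosis, was at 0.18 and 0.28 FPKM in tamoxifen, against 4.89 and 12.7 FPKM in vehicle (limma log2 fold change −2.87 ± 0.39 SE, adjusted p = 0.00155). The groups did not overlap for either type I chain.

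These low tamoxifen values rested on few fragments. Col1a1 had about 19 and 28 fragments in tamoxifen and about 600 and 1478 in vehicle, as inferred from FPKM, transcript length and depth. The exact 95% Poisson interval, which covers counting error only, put Col1a1 at 0.108 to 0.281 FPKM in tamoxifen 1 and 0.186 to 0.405 FPKM in tamoxifen 2, and at 4.51 to 5.30 FPKM in vehicle 1. For Col3a1 it ran from 0.337 to 0.614 FPKM in tamoxifen 1 and from 25.5 to 27.4 FPKM in vehicle 1. The gap between the groups was therefore wider than counting error for both genes.

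Type V collagen, which is built into type I fibrils and sets their diameter, divided by chain. Col5a1 (chr2:27886425-28039514, plus strand) was at 0.35 and 0.36 FPKM in tamoxifen, against 5.08 and 12.0 FPKM in vehicle (log2 fold change −2.71, adjusted p = 0.00148 from limma). Col5a2 (chr1:45374321-45503282, minus strand), which lies next to Col3a1, was at 0.17 and 0.14 FPKM in tamoxifen, against 1.78 and 4.31 FPKM in vehicle (log2 fold change −1.73, adjusted p = 0.00523 from limma). Both genes were below 0.4 FPKM in tamoxifen and the groups did not overlap. Col5a3 (chr9:20770050-20815067, minus strand), the minor chain, was at 1.04 and 0.99 FPKM in tamoxifen, against 2.63 and 1.92 FPKM in vehicle. Its log2 fold change was −0.69 ± 0.24 SE (limma, adjusted p = 0.0446), at percentile 44.4 of all genes tested and near their median of −0.60. This call was lost without tamoxifen 1 (log2 fold change −0.71) or tamoxifen 2 (−0.67) and after rescaling by median ratios (−0.26). Col5a3 was the only fibrillar gene tested that was lower in vehicle 2 than in vehicle 1.

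The other fibrillar genes were below the filter. Col27a1, a chain of cartilage and developing tissue, was at 0.18 FPKM in both tamoxifen libraries, against 0.83 and 1.89 FPKM in vehicle. Col11a2 was at 0.13 and 0.10 FPKM in tamoxifen and 0.29 and 0.75 FPKM in vehicle. Col24a1 was listed at 0 in both tamoxifen libraries and at 0.18 FPKM in each vehicle library, about 27 and 25 fragments. Col11a1 did not exceed 0.01 FPKM, and Col2a1, the cartilage collagen, was at 0 in all 4 libraries.

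**Figure D3:**
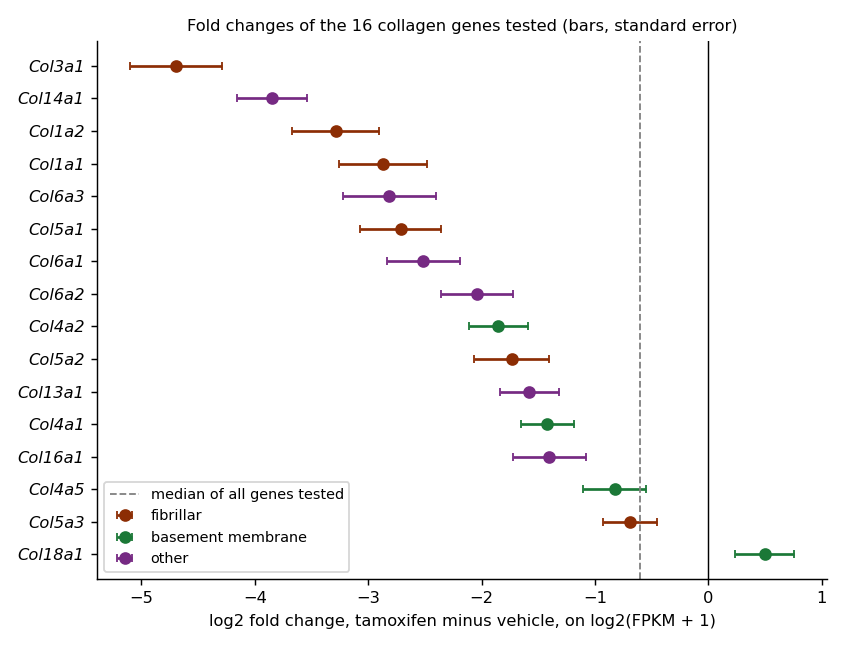
Log2 fold change of tamoxifen over vehicle on the log2(FPKM + 1) scale for the 16 collagen genes tested, coloured by class, with bars of 1 standard error from limma. The values run from −4.70 for Col3a1 to 0.50 for Col18a1, with 15 of the 16 below 0.

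The basement membrane class held the collagen that was not called. Col18a1 (chr10:77052178-77166548, minus strand) encodes type XVIII collagen, a heparan sulfate proteoglycan whose C-terminal fragment is endostatin. It was at 124 and 136 FPKM in tamoxifen, against 116 and 73.1 FPKM in vehicle. Both tamoxifen libraries were above both vehicle libraries, but vehicle 1 came close to tamoxifen 1, and the log2 fold change of 0.50 (standard error 0.26) did not pass (adjusted p = 0.144 from limma). Among all genes tested this fold change stood at percentile 94.1. It passed, at 0.82 (adjusted p = 0.0291 from limma), without vehicle 1 and, at 1.22 (adjusted p = 0.0244 from limma), after rescaling by median ratios, and its adjusted p ran from 0.0244 to 0.537 over all alternatives. Col18a1 made up 75.3% and 75.4% of all collagen FPKM in tamoxifen, against 38.1% and 17.6% in vehicle. Without it the collagens summed to 40.7 and 44.4 FPKM in tamoxifen and 187 and 343 FPKM in vehicle.

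Type IV collagen, the network former of basement membranes, was lower. Col4a1 (chr8:11198423-11312826, minus strand) was at 22.8 and 23.0 FPKM in tamoxifen, against 52.7 and 75.0 FPKM in vehicle (limma log2 fold change −1.42 ± 0.23 SE, adjusted p = 0.0029). Its partner in the most widespread trimer, Col4a2 (chr8:11312805-11449287, plus strand), was at 7.54 and 8.54 FPKM in tamoxifen, against 25.0 and 39.9 FPKM in vehicle (limma log2 fold change −1.85 ± 0.26 SE, adjusted p = 0.00178). The groups did not overlap for either gene, and Col4a1 kept the highest tamoxifen level of all collagens that fell. Col4a5 (chrX:141475385-141689234, plus strand), best known from the kidney glomerulus, was at 0.78 and 0.39 FPKM in tamoxifen, against 1.33 and 2.34 FPKM in vehicle. Its log2 fold change was −0.83 ± 0.28 SE (limma, adjusted p = 0.0412), at percentile 36.3 of all genes tested. That call was lost without any of tamoxifen 1 (−1.005), tamoxifen 2 (−0.65) and vehicle 2 (−0.57), and after rescaling by median ratios (−0.46).

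The 6 type IV genes summed to 31.4 and 32.2 FPKM in tamoxifen and 79.5 and 118 FPKM in vehicle, a vehicle mean 3.12 times the tamoxifen mean, beside 25.9 times for the fibrillar class. Within the type IV genes Col4a3, Col4a4 and Col4a6 stayed below the filter, at 0.05 to 0.15 FPKM in tamoxifen and 0.13 to 0.54 FPKM in vehicle. Col15a1, the other multiplexin, was at 0.67 and 0.34 FPKM in tamoxifen and 0.87 and 1.83 FPKM in vehicle, also below the filter. The whole basement membrane class summed to 156 and 169 FPKM in tamoxifen and 196 and 193 FPKM in vehicle. It was 94.8% and 93.4% of collagen FPKM in tamoxifen, against 64.7% and 46.5% in vehicle.

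**Figure D4:**
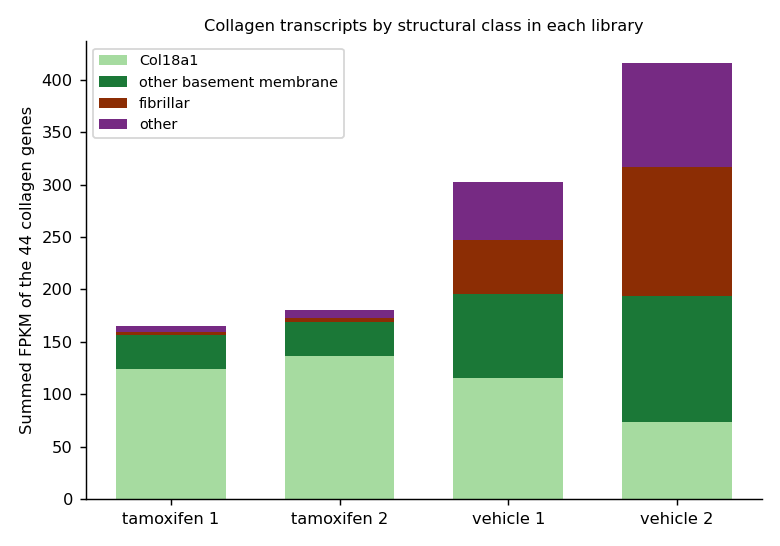
Summed FPKM of the fibrillar, basement membrane and other collagen genes in each library (stacked bars starting at 0, with the basement membrane genes divided into Col18a1 in light green and the rest in dark green). The fibrillar sum is 3.24 and 3.52 FPKM in tamoxifen against 51.7 and 124 FPKM in vehicle, while the basement membrane sum, which holds Col18a1, is 156 and 169 FPKM against 196 and 193 FPKM.

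Of the 25 other collagens, 6 were tested and all 6 were lower in tamoxifen (median log2 fold change −2.28), 5 of them with means at least 4-fold lower. The shares over all genes tested were 46.7% lower and 17.2% at least 4-fold lower. In 4 of the 6 both tamoxifen libraries were under 1 FPKM, so that these passed the filter only through vehicle. The class summed to 5.40 and 8.38 FPKM in tamoxifen against 55.4 and 99.0 FPKM in vehicle, a vehicle mean 11.2 times the tamoxifen mean. Col14a1 (chr15:55307750-55520803, plus strand), a FACIT collagen that binds the surface of type I fibrils, was the highest of them. It was at 1.28 and 2.11 FPKM in tamoxifen, against 28.3 and 49.3 FPKM in vehicle, about 148 and 226 fragments against 3777 and 6235. Its log2 fold change was −3.85 ± 0.31 SE (limma, adjusted p = 0.000501). In vehicle Col14a1 exceeded Col1a2 in both libraries and Col3a1 in vehicle 1. Col16a1 (chr4:130047840-130099283, plus strand), another FACIT, was at 0.13 and 0.22 FPKM in tamoxifen and 1.3 and 3.18 FPKM in vehicle (log2 fold change −1.40, adjusted p = 0.0102 from limma).

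The beaded filament genes of type VI collagen, which links cells to the surrounding matrix, fell together. Col6a1 (chr10:76708792-76726168, minus strand) was at 0.53 and 0.77 FPKM in tamoxifen, against 5.95 and 11.7 FPKM in vehicle (log2 fold change −2.51, adjusted p = 0.00132 from limma). Col6a2 (chr10:76595762-76623630, minus strand) was at 0.19 and 0.30 FPKM in tamoxifen, against 2.80 and 5.87 FPKM in vehicle (log2 fold change −2.04, adjusted p = 0.00248 from limma). Col6a3 (chr1:90765923-90843971, minus strand), the longest chain, was at 0.17 and 0.37 FPKM in tamoxifen, against 4.66 and 13.0 FPKM in vehicle (log2 fold change −2.81, adjusted p = 0.00195 from limma). All 3 genes were under 1 FPKM in both tamoxifen libraries. The 3 other type VI genes, Col6a4, Col6a5 and Col6a6, did not exceed 0.05 FPKM.

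Col13a1 (chr10:61838236-61979108, minus strand), a transmembrane collagen of cell adhesion sites, fell less. It was at 2.69 and 4.24 FPKM in tamoxifen, against 10.7 and 13.7 FPKM in vehicle (limma log2 fold change −1.58 ± 0.26 SE, adjusted p = 0.00306). It was, with Col14a1, 1 of 2 genes of this class above 1 FPKM in tamoxifen. Among the others below the filter, Col12a1, the FACIT relative of Col14a1, was at 0.11 and 0.08 FPKM in tamoxifen and 0.81 and 0.52 FPKM in vehicle. The network formers Col8a1, Col8a2 and Col10a1 did not exceed 0.11 FPKM in any library.

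Of the 24 collagens below the filter and above 0 in some library, 14 were lower in both tamoxifen libraries than in both vehicle libraries (3 fibrillar, 4 basement membrane and 7 others). The share was 48.8% over all genes below the filter and above 0. Of the genes under 1 FPKM in every library, 14 had fewer than 10 estimated fragments in each, and for these no difference was detectable at this depth.

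Vehicle 2 was higher than vehicle 1 in 14 of the 15 genes called lower, beside 70.9% of all genes tested. The ratio of vehicle 2 to vehicle 1 was 2.60 for Col1a1, 2.47 for Col1a2, 2.51 for Col3a1, 2.36 for Col5a1 and 2.42 for Col5a2, and 2.79 for Col6a3. It was smaller for Col14a1 (1.74), Col4a2 (1.60), Col4a1 (1.42) and Col13a1 (1.28), and below 1 for Col5a3 (0.73) and Col18a1 (0.633). The SD of the vehicle libraries was accordingly large beside the mean, for example 46.3 ± 28.2 FPKM for Col3a1 and 8.80 ± 5.54 FPKM for Col1a1 (n = 2), where tamoxifen was at 0.67 ± 0.297 FPKM for Col3a1 and 0.23 ± 0.0707 FPKM for Col1a1 (n = 2). Leaving out vehicle 2 left 14 collagens called lower and leaving out vehicle 1 left 15. With 2 libraries against 2, an exact permutation test of a single gene could not go below p = 0.333 (two-sided).

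Chains of the same trimer were compared within each library, as a description without a test. The ratio of Col1a1 to Col1a2 was 0.25 and 0.475 in tamoxifen and 0.51 and 0.538 in vehicle, on few fragments in tamoxifen. The ratio of Col4a1 to Col4a2 was 3.02 and 2.69 in tamoxifen and 2.11 and 1.88 in vehicle. The ratio of Col6a1 to Col6a2 was 2.79 and 2.57 in tamoxifen and 2.13 and 1.99 in vehicle. The ratio of Col5a1 to Col5a2 was 2.06 and 2.57 in tamoxifen and 2.85 and 2.78 in vehicle. The ratio of Col6a3 to Col6a1 was 0.321 and 0.481 in tamoxifen and 0.783 and 1.11 in vehicle. The groups did not overlap in any of these 5 ratios, and vehicle 1 and vehicle 2 differed most in that of Col6a3 to Col6a1. Except for Col4a1 to Col4a2, the tamoxifen ratios rested on few fragments, for example about 20 and 15 for Col5a2 and 13 and 20 for Col6a2. No counting interval was computed for the ratios, so small gaps between the groups may be counting error. Between different fibril collagens, Col3a1 relative to Col1a2 was 0.639 and 1.49 in tamoxifen and 2.75 and 2.80 in vehicle, and Col14a1 relative to Col1a2 was 1.78 and 3.58 in tamoxifen and 2.95 and 2.08 in vehicle, where the groups overlapped.

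Promoter windows are shown for genes of opposite behaviour, since Col1a2 and Col3a1 fell together, Col4a1 shares its promoter region with Col4a2, and Col18a1 did not fall. The windows hold 250 bases before and 50 from the start in RefSeq (GRCm38.p6), 5′ to 3′ on the gene's strand, and 38 windows matched 35 of the 44 genes. Capitals mark matches on either strand to the CCAAT box, to GGGCGG (the GC box), to the TATA box TATAAA and to the AP-1 motif TGANTCA, and in these windows no match overlaps another.
Col1a2, chr6:4505368-4505667, plus strand: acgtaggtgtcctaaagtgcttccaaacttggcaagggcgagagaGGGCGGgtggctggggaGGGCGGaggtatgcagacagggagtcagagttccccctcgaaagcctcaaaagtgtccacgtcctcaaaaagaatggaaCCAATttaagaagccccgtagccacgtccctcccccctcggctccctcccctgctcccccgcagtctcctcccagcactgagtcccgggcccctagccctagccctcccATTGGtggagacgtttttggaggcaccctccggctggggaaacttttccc
Col3a1, chr1:45311288-45311587, plus strand: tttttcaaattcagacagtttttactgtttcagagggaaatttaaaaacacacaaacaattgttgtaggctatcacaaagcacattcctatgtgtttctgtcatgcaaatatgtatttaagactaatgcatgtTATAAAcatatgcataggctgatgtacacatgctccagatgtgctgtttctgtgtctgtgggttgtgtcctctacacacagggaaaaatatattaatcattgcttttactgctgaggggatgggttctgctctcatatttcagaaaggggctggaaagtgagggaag
Col4a1, chr8:11312777-11313076, minus strand: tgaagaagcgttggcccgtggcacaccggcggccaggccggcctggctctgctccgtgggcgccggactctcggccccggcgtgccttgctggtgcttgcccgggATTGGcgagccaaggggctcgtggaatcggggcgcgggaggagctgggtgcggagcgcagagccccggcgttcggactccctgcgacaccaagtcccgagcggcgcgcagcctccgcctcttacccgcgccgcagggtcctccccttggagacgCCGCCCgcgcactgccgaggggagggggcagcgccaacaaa
Col18a1, upstream start, chr10:77166481-77166780, minus strand: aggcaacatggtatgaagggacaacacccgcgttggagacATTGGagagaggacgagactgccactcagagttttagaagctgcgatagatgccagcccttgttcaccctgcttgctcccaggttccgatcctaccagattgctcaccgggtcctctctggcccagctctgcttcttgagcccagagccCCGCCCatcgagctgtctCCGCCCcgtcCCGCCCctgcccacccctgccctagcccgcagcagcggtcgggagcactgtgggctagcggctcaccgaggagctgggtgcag
Col18a1, downstream start, chr10:77113656-77113955, minus strand: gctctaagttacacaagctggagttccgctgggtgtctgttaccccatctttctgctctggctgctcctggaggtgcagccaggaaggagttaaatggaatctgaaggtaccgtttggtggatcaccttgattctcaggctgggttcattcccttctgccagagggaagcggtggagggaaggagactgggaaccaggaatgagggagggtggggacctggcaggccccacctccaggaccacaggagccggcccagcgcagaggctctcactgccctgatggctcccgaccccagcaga

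The Col1a2 window held 2 CCAAT boxes and 2 GC boxes, and the Col3a1 window held a TATAAA match and neither of those. The Col4a1 window held 1 CCAAT box and 1 GC box. The starts of Col4a1 and Col4a2 lay 21 bases apart on opposite strands, so their windows shared 78 bases, and the gene bodies overlap by 22 bases, where reads cannot be told apart unless strand was used. The starts of Col18a1 lay 52825 bases apart, with 1 CCAAT box and 3 GC boxes in the upstream window and 0 matches in the downstream window. The FPKM values combine both starts. GC boxes were found in 23 of the 38 collagen windows (60.5%) and in 35.7% of all 32851 windows, CCAAT in 13 (34.2%) and 37.4%, TATAAA in 5 (13.2%) and 13.6%, and TGANTCA in 1 (2.63%) and 7.81%. A match is a description of these letters and not a binding site.

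Genes that make, cut, bind or surround collagens were counted next, from 4 lists of 61 genes. Of these, 43 were tested, 33 were lower and 2 were higher, with a median log2 fold change of −1.37, beside 46.7% lower, 4.31% higher and −0.60 over all genes tested. Of the 43, 15 were under 1 FPKM in both tamoxifen libraries and so passed the filter only through vehicle. Among 20 genes for modifying and folding collagen chains, 17 were tested and 10 were lower, 0 higher (0 also at an unadjusted p under 0.05; limma), with a median of −1.12. Of the 17, 4 were under 1 FPKM in both tamoxifen libraries. Serpinh1, the collagen-specific chaperone HSP47, was at 1.34 and 1.27 FPKM in tamoxifen, against 10.8 and 22.4 FPKM in vehicle (log2 fold change −2.85, adjusted p = 0.00102 from limma). P4ha1, the catalytic subunit of prolyl 4-hydroxylase, was at 1.29 and 1.28 FPKM in tamoxifen, against 7.94 and 13.0 FPKM in vehicle (log2 fold change −2.29, adjusted p = 0.00109 from limma). Crtap, of the prolyl 3-hydroxylation complex, fell by 1.72 on the log2 scale (adjusted p = 0.00246 from limma). The list's highest genes did not pass. P4hb, protein disulfide isomerase, was at 825 and 520 FPKM in tamoxifen and 744 and 597 FPKM in vehicle (adjusted p = 0.950 from limma). Ppib, cyclophilin B, was at 137 and 107 FPKM in tamoxifen and 96.2 and 121 FPKM in vehicle (adjusted p = 0.579 from limma). After rescaling by median ratios Ppib was higher (log2 fold change 0.89, adjusted p = 0.0186 from limma, with a range of 0.0186 to 0.992 over all alternatives).

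Of 14 genes for trimming and crosslinking, 6 were tested, 4 were lower and 1 was higher, beside 46.7% lower and 4.31% higher over all genes tested. Of the 6, 2 were under 1 FPKM in both tamoxifen libraries, so they passed the filter only through vehicle and had to be lower. Loxl2, a lysyl oxidase that crosslinks collagen, was at 0.25 and 0.41 FPKM in tamoxifen, against 3.97 and 8.05 FPKM in vehicle (log2 fold change −2.34, adjusted p = 0.00163 from limma). Pcolce, an enhancer of procollagen C-proteinase, was at 0.87 and 1.58 FPKM in tamoxifen, against 6.13 and 13.8 FPKM in vehicle (log2 fold change −2.23, adjusted p = 0.00309 from limma). Tgm2, tissue transglutaminase, was at 42.0 and 33.4 FPKM in tamoxifen, against 79.3 and 122 FPKM in vehicle (log2 fold change −1.37, adjusted p = 0.00521 from limma). Bmp1, the procollagen C-proteinase itself, was higher, at 24.7 and 26.8 FPKM in tamoxifen, against 17.5 and 16.5 FPKM in vehicle (log2 fold change 0.57, adjusted p = 0.0433 from limma). That call was lost with any library left out (0.51 to 0.63) and with library weights, and the Tgm2 call was lost after rescaling by median ratios (−0.65).

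All 5 receptor genes tested of 10 were lower, with a median log2 fold change of −2.02, beside 46.7% lower over all genes tested. Of the 5, 2 were under 1 FPKM in both tamoxifen libraries. Itgb1, the integrin β1 subunit shared by the collagen-binding integrins, was at 36.8 and 38.0 FPKM in tamoxifen, against 77.0 and 115 FPKM in vehicle (log2 fold change −1.31, adjusted p = 0.0046 from limma). Its call was lost after rescaling by median ratios (−0.58). Lair1, an inhibitory collagen receptor of immune cells, was at 1.19 and 2.30 FPKM in tamoxifen, against 11.2 and 26.0 FPKM in vehicle (log2 fold change −2.75, adjusted p = 0.00186 from limma). The discoidin domain receptors, tyrosine kinases that bind collagen, fell by 2.09 (Ddr1) and 2.02 (Ddr2) on the log2 scale. Of 17 matrix partners, 15 were tested, 14 were lower and 1 was higher (median −1.74), beside 46.7% lower and 4.31% higher over all genes tested. Of the 15, 7 were under 1 FPKM in both tamoxifen libraries, so they passed the filter only through vehicle and had to be lower.

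The 3 matrix partners with the most negative log2 fold changes, Lum, Dcn and Bgn, encode small proteoglycans that bind collagen. Dcn, decorin, was at 26.7 and 42.5 FPKM in tamoxifen, against 280 and 450 FPKM in vehicle (log2 fold change −3.36, adjusted p = 0.00061 from limma). Lum, lumican, fell by 3.59 and Bgn, biglycan, by 3.26 on the log2 scale. Fn1, fibronectin, which hepatocytes secrete into plasma, was higher, at 494 and 517 FPKM in tamoxifen, against 292 and 202 FPKM in vehicle (log2 fold change 1.05, adjusted p = 0.0131 from limma). The Fn1 call was lost without tamoxifen 1 (log2 fold change 1.09) or tamoxifen 2 (1.02) and after quantile normalization (0.92).

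Markers of several cell types, only some of which make collagens, were counted beside the collagens. Over all genes tested, 46.7% were lower and 4.31% higher, with a median log2 fold change of −0.60. In bulk samples, fewer cells of a type and less RNA per cell cannot be told apart. All 15 stellate cell markers were tested and 14 were lower, with a median log2 fold change of −2.30, and they summed to 36.4 and 52.1 FPKM in tamoxifen against 274 and 424 FPKM in vehicle. In 7 of the 15 both tamoxifen libraries were under 1 FPKM, so these could only be lower once tested. The highest were Ecm1, at 8.08 and 22.9 FPKM in tamoxifen and 134 and 190 FPKM in vehicle, and Rgs5, at 2.48 and 3.35 FPKM in tamoxifen and 22.4 and 48.3 FPKM in vehicle. Of 10 markers of activated stellate cells and myofibroblasts, 6 were tested and 6 were lower (median −2.33), 3 of them under 1 FPKM in both tamoxifen libraries, and the list summed to 54.1 and 94.1 FPKM in tamoxifen and 282 and 666 FPKM in vehicle. Acta2, the smooth muscle actin that defines myofibroblasts, was at 0.11 and 0.07 FPKM in tamoxifen and 2.60 and 5.49 FPKM in vehicle. It was chosen after its values were seen. Mfap5, Cthrc1 and Cnn1, also chosen so, were near 0 throughout, at 0 in both tamoxifen libraries and at no more than 0.1 FPKM in either vehicle library. Most of this list's sum came from Spp1, also a cholangiocyte marker, and Lgals1.

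Of 14 markers of portal fibroblasts and mesothelium, 3 were tested and 2 were lower, where 46.7% of all genes tested were. These 2 were under 1 FPKM in both tamoxifen libraries, so they passed the filter only through vehicle and had to be lower. The 14 markers summed to 5.09 and 3.74 FPKM in tamoxifen and 10.9 and 20.9 FPKM in vehicle, Entpd2 and Thy1 being the highest. All 14 liver endothelial markers were lower (median −1.91), with sums of 164 and 203 FPKM in tamoxifen and 591 and 939 FPKM in vehicle, led by Fcgr2b and Clec4g. All 14 Kupffer cell and macrophage markers were lower too (median −3.09), with sums of 145 and 235 FPKM in tamoxifen and 1699 and 3135 FPKM in vehicle, led by Gpnmb and Cd5l. In these last 2 lists 0 genes were under 1 FPKM in both tamoxifen libraries. Of 10 cholangiocyte markers, 8 were tested and 5 were lower (median −1.41), Spp1 and Tm4sf4 being the highest. Of these 5, 3 were under 1 FPKM in both tamoxifen libraries, so they passed the filter only through vehicle and had to be lower. Of 12 lymphocyte and neutrophil markers, 4 were tested and 2 were lower (median −1.12), S100a9 and S100a8 being the highest. This count is near the 46.7% lower over all genes tested, and 1 of the 2 was under 1 FPKM in both tamoxifen libraries. Of 16 pancreatic acinar markers, led by Ctrb1 and Try5, 13 were tested and 0 passed (limma; 0 higher at an unadjusted p under 0.05). Of the 11 hepatocyte markers, 4 were higher, where 4.31% of all genes tested were, and 7 did not pass, with a median of 0.76. Alb, albumin, was at 50399 and 45402 FPKM in tamoxifen and 35301 and 26382 FPKM in vehicle, and Cyp2e1 at 4193 and 3597 FPKM in tamoxifen and 4967 and 2907 FPKM in vehicle.

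**Figure D5:**
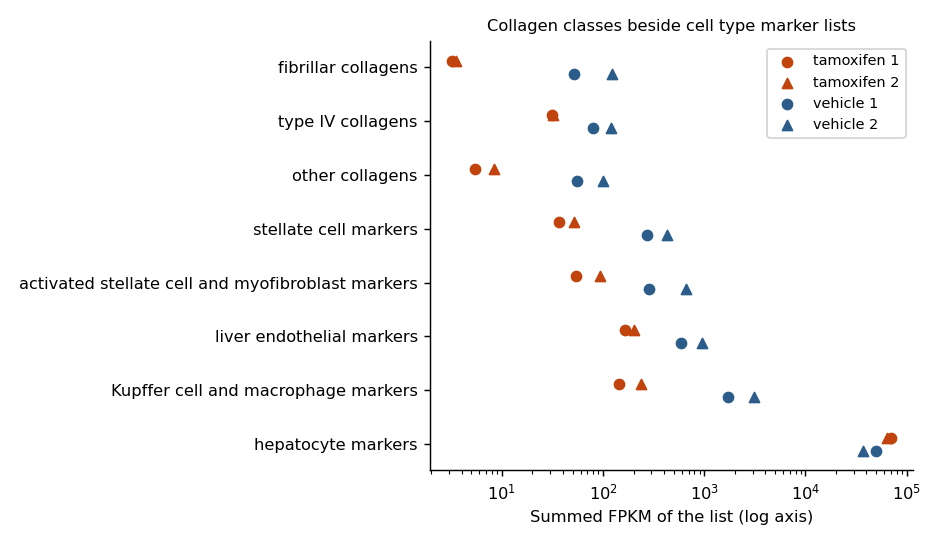
Summed FPKM (log axis) of 3 collagen groups and 5 cell type marker lists in each library. The fibrillar, type IV and other collagens lie lower in tamoxifen together with the stellate, endothelial and Kupffer cell lists, and the hepatocyte list lies higher in tamoxifen.

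The collagens did not move in proportion to the stellate cell list. Per summed stellate marker FPKM, Col3a1 was 0.0126 and 0.0169 in tamoxifen and 0.0965 and 0.156 in vehicle, and Col1a1 was 0.00495 and 0.00537 in tamoxifen and 0.0179 and 0.030 in vehicle. Col14a1 was 0.0352 and 0.0405 in tamoxifen and 0.103 and 0.116 in vehicle. Col4a1 went the opposite way, at 0.626 and 0.441 in tamoxifen and 0.193 and 0.177 in vehicle, as did Col18a1, at 3.41 and 2.62 in tamoxifen and 0.423 and 0.172 in vehicle. The groups did not overlap in any of these 5 ratios. The part of the marker lists in the collagen differences was not tested.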

How the data were processed

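Hepatocyte mRNA was sequenced in 2 tamoxifen and 2 vehicle libraries, grouped by the labels. The authors deposited FPKM values with 2 decimals. The submitters' processing notes list RSEM, HISAT2, Bowtie2, StringTie 1.3.1 and fastp 0.18.0 without their roles. Genome build: not given in the sources used here, nor was the annotation. Gene identifiers were matched to GENCODE M21 (GRCm38), which lacked 43 of them, and its coordinates and transcripts were used.

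Values were analysed as log2(FPKM + 1) with limma 3.58.1 in R 4.3.3 (lmFit, eBayes with trend), two-sided, adjusted by Benjamini-Hochberg over the 11633 genes that reached 1 FPKM in 2 or more libraries, with a call at an adjusted p under 0.05. A fold change on this scale understates the change of low genes. Depth and fragments per gene were estimated from transcript length and the steps between low FPKM values. The coding repeats were read from the transcript with the longest coding sequence. The method was tested on simulated data in which few genes changed, about equally in both directions. These libraries differ from that setting, so the simulation does not bear on the share of calls reported here. Python 3.11.15 with matplotlib 3.10.9 drew the figures.

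Members and lists were chosen with earlier results of these data known, and the lists were written from general knowledge. Named genes were the collagens at 1 FPKM or more in any library, the 3 largest called changes in each direction and the 2 highest means of each partner list, and the 2 highest means of each marker list. Collagens under 1 FPKM that are named were chosen after their values were seen. The alternatives were a pseudocount of 0.1, no filter or a mean of at least 5 FPKM, median-ratio and quantile scaling, library weights, the replicate number as a block, each library left out, and a fold change above 1.5 with an unadjusted p under 0.05.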

Additional observations from a re-analysis of the deposited data

How the results depend on the processing

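Of the 15 collagens called lower, 13 were called at a median-ratio scaling, with 1 collagen (Col18a1) called higher, and 11 after quantile normalization. Leaving out each library left 13 to 15 called lower and 0 to 1 called higher. With a mean of at least 5 FPKM, 7 collagens were tested and 6 were lower, 2 of them fibrillar and 2 other types. Without a filter 15 were lower, 13 of them shared, with Col12a1 and Col24a1 gained. Col4a5 and Col5a3 changed sign under quantile normalization (0.14 and 0.25), and Col16a1 (−0.45) and Col5a2 (−0.79) lost their calls there. Scaling moved the split over all genes: 91.6% of calls were lower as reported, 58.1% after median-ratio scaling, where the median log2 fold change was 0.013, and 50.7% after quantile normalization, where it was 0.092. The collagen medians also differed between settings, and those with another filter covered other numbers of genes. The fibrillar median was −2.37 after median-ratio scaling and −1.90 after quantile normalization. It was −4.23 at a pseudocount of 0.1, −1.35 without a filter (10 genes) and −3.99 under the filter at a mean of 5 FPKM (2 genes). The basement membrane median was −0.46 without a filter (8 genes), −0.58 after median-ratio scaling and −0.42 after quantile normalization. The median of the other collagens was −1.85 after median-ratio scaling and −1.37 after quantile normalization. It was −3.56 at a pseudocount of 0.1 and −0.14 without a filter (22 genes). Of the partner genes, 20 of 27 tested were lower under the stricter filter (mean of 5 FPKM or more) and 21 after quantile normalization. Higher were 4 after median-ratio scaling, 1 after quantile normalization, 1 with library weights, 1 by fold change above 1.5 with an unadjusted p under 0.05, and 0 to 1 with a library left out. P4hb, not called, had a log2 fold change of 0.71 after median-ratio scaling and −0.36 to 0.31 with a library left out, and Ppib, not called, had −0.016 to 0.34 with a library left out. Low fragment numbers in tamoxifen and 2 libraries a group limit the precision of all of these values. Where no cause is given, the cause was not tested.

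Libraries of the same number correlated in their deviations from the group means (r = 0.283), but with 2 pairs and no label that a number marks a shared mouse or batch they share only a number. With the replicate block, 15 collagens were lower and 0 higher (limma), and over all genes 5863 were lower and 573 higher.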
